A study of Mus musculus with 8 samples.

Results

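Cholesterol synthesis and its control by SREBP2 were described here with 29 mouse genes, taken by symbol from the 24411 genes of the deposited count table. They comprised 8 genes of mevalonate and isoprenoid synthesis, 11 genes of the steps from squalene to cholesterol, 4 genes of SREBP2 and its control, and 6 genes of cholesterol uptake, transport and esterification. All 29 passed the filter on low counts, as did 13633 genes in all. None of the 29 was called in any of 7 comparisons, and their values in each library are given with the changes that the data leave possible.

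The study asked how triclosan (TCS), an antimicrobial compound, and the stress transcription factor ATF4 act on the neonatal liver. Liver RNA was sequenced from *hUGT1/Atf4ΔHep* mice given TCS, *hUGT1/Atf4ΔHep* mice given vehicle, *hUGT1/Atf4F/F* mice given TCS and *hUGT1/Atf4F/F* mice given vehicle, called *ΔHep* and *F/F* mice here. Every group carried the human *UGT1* locus in place of the mouse *Ugt1* locus and the floxed *Atf4* gene. In *ΔHep* mice *Atf4* was deleted by Cre under the albumin promoter, which is active in hepatocytes, so that other liver cells kept the gene. TCS was given by oral gavage at 50 mg/kg on 4 consecutive days. The methods give an age of 14 days for the sequenced mice and of 10 days at the first dose in the treatment experiment. Each library held the pooled RNA of 2 pups, and 2 such libraries (n = 2), 4 mice in all, made up a group. Pups of both sexes on a C57BL/6 background were used, and nothing in the labels ties libraries to litters. The pools differed in sex makeup. The summed level of 4 Y-linked genes was 171 and 90.6 CPM (counts scaled to library size after TMM normalization) in *ΔHep* TCS libraries, 80.8 and 163 CPM in *ΔHep* vehicle libraries, 92.9 and 73.4 CPM in *F/F* TCS libraries and 175 and 180.1 CPM in *F/F* vehicle libraries. *Xist*, the RNA that silences 1 X chromosome in female cells, had 718 and 758 CPM in *F/F* TCS libraries against 23.2 and 1.05 CPM in *F/F* vehicle libraries. Treatment therefore went with sex makeup in the *F/F* groups, and TCS and sex cannot be told apart there from the 2-group comparison alone. Under vehicle, both *ΔHep* libraries also had lower Y-linked sums than both *F/F* libraries, and *Xist* had 778 and 4.50 CPM in these *ΔHep* libraries. Deletion and sex makeup were therefore not fully separate under vehicle. Under TCS, *Xist* had 0.346 and 753 CPM in *ΔHep* libraries against 718 and 758 CPM in *F/F* libraries, so they were not fully separate there either. The averages and the interaction draw on these same groups and share this limit. Values with a term for the Y-linked share are given beside several of the results, not all.

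Cells make cholesterol from acetyl-CoA through mevalonate, isoprenoid units and squalene, and then by a series of oxidations and reductions of lanosterol. When membrane sterol in the endoplasmic reticulum is low, SCAP carries the transcription factor SREBP2 to the Golgi, where it is cut and released to the nucleus to raise the genes of this pathway. When sterol is high, the INSIG proteins hold SCAP back. Liver also takes up cholesterol from lipoproteins, moves it out of lysosomes, esterifies it for storage and secretes the enzyme that esterifies cholesterol in plasma.

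Libraries held 11624143 to 25573210 counts, of which 24185 to 56274 fell on the 29 genes. *Atf4* had 17.5 and 17.4 CPM in *ΔHep* TCS libraries, 18.5 and 19.7 CPM in *ΔHep* vehicle libraries, 58.6 and 59.8 CPM in *F/F* TCS libraries and 59.5 and 62.8 CPM in *F/F* vehicle libraries, so the deletion was visible in both *ΔHep* groups. The 8 hepatocyte markers examined, all present in each library, summed to 147012 and 137307 CPM in *ΔHep* TCS libraries against 151612 and 160642 CPM in *ΔHep* vehicle libraries, and to 150405 and 133663 CPM in *F/F* TCS libraries against 157720 and 163780 CPM in *F/F* vehicle libraries, lower under TCS in both genotypes. The 8 pancreatic acinar markers summed to 94.3 and 85.7 CPM in *ΔHep* TCS libraries against 15.6 and 13.2 CPM in *ΔHep* vehicle libraries, and to 53.2 and 37.5 CPM in *F/F* TCS libraries against 8.57 and 41.0 CPM in *F/F* vehicle libraries. *Amy2b* was at 0 in 4 of the 8 libraries, and for 7 of these markers that were tested, all fold changes with TCS were positive in both genotypes. For TCS averaged over genotypes, edgeR called 3 of these 7 higher and 1 of 3 tested intestinal markers lower, at an adjusted p under 0.05. Of all genes, 2.59% were called there. Most markers of other cell types had negative fold changes with TCS: all 7 neutrophil and granule markers and all 3 tested erythroid and 3 tested intestinal markers in both genotypes, 7 of 7 Kupffer cell and macrophage markers in *ΔHep* mice and 6 of 7 in *F/F* mice, and 5 of 6 endothelial markers in *ΔHep* mice and 6 of 6 in *F/F* mice. Negative values were also found for 4 of 5 cholangiocyte, 5 of 6 lymphocyte and 5 of 6 stellate and matrix markers in *ΔHep* mice, and for 3 of 5, 4 of 6 and 2 of 6 in *F/F* mice. The part of these cell types in the values of the cholesterol genes was not tested. These are bulk samples, so fewer cells of a type and less RNA per cell cannot be told apart.

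Levels between genes were compared per kilobase of merged exons. *Lcat*, the secreted enzyme that esterifies plasma cholesterol, stood highest, with a median over the 8 libraries of 315 CPM per kb. *Insig2*, an INSIG protein abundant in liver, had a median of 63 CPM per kb, *Sc5d*, a sterol desaturase, 58.1 CPM per kb, and *Ebp*, a sterol isomerase, 56.3 CPM per kb. The ranges of these 3 genes over the libraries overlapped in the order given. Below them came *Hmgcs1*, the synthase that forms HMG-CoA, at 37.8 CPM per kb, *Soat2*, which esterifies cholesterol inside hepatocytes, at 29.6 CPM per kb and *Scap*, the SREBP escort, at 23.8 CPM per kb, with ranges that did not overlap. The lowest levels belonged to *Sqle*, the squalene epoxidase, at 0.293 CPM per kb and *Idi1*, the isomerase of isopentenyl diphosphate, at 0.758 CPM per kb. *Sqle* had 5 to 71 raw counts per library, so its values carry the largest counting error of the set.

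**Figure D1:**
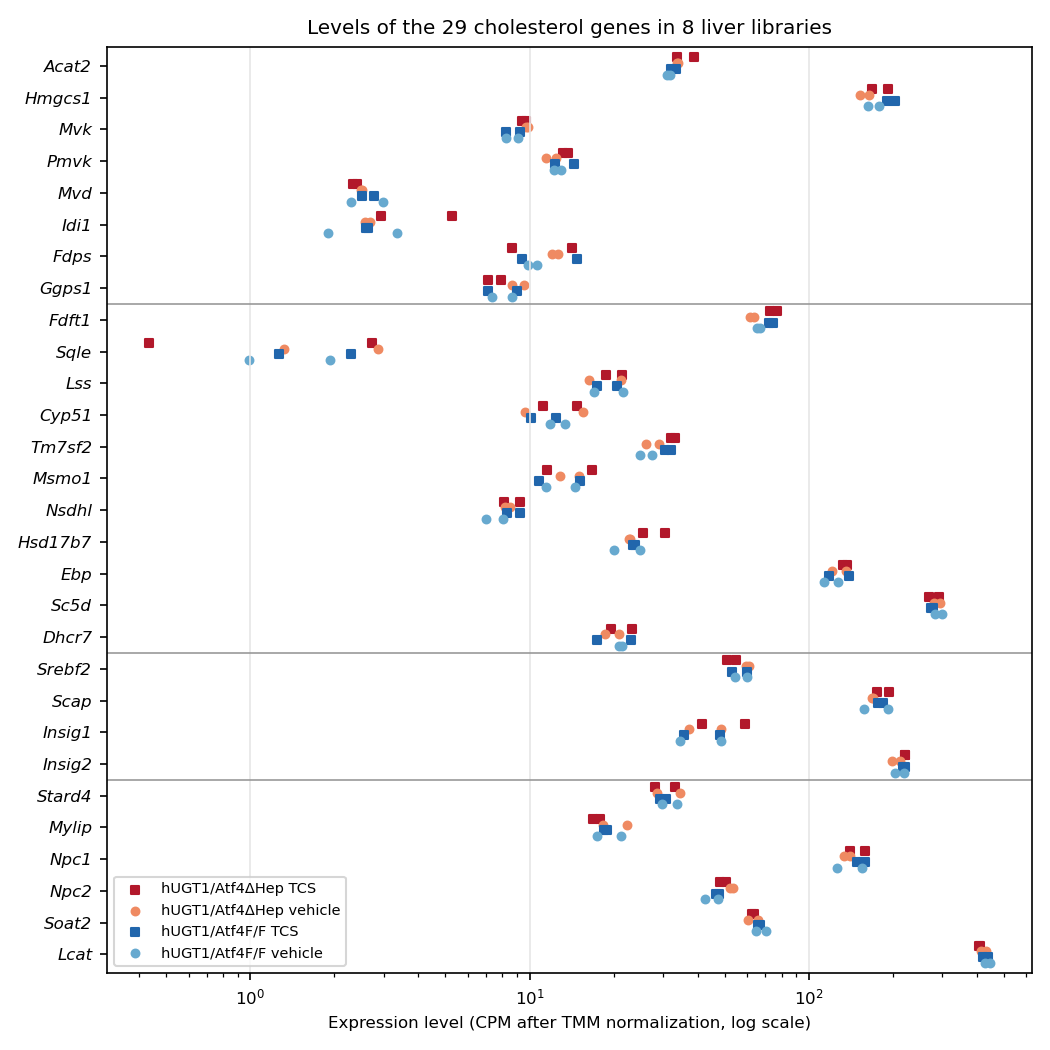
CPM of each of the 29 genes on a log axis, with 2 points per group (one per library) and lines between the 4 gene groups. *Lcat*, at 408 to 446 CPM, stands furthest right, *Sqle*, at 0.433 to 2.87 CPM, is furthest left, and for most genes the points of the 4 groups lie together.

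The remaining genes lay between these. In mevalonate and isoprenoid synthesis, *Pmvk* (phosphomevalonate kinase) had 11.4 to 14.5 CPM, *Mvd* (mevalonate diphosphate decarboxylase) 2.30 to 2.99 CPM and *Ggps1* (geranylgeranyl diphosphate synthase) 7.09 to 9.53 CPM over the 8 libraries. In the sterol steps, *Dhcr7*, the reductase of the last step, had 17.5 to 23.2 CPM and *Lss*, which closes the ring of lanosterol, 16.3 to 21.7 CPM. Among the handling genes, *Mylip*, a ubiquitin ligase that lowers the receptor for LDL, had 16.9 to 22.3 CPM and *Stard4*, a sterol carrier, 28.1 to 34.7 CPM. Over all 8 libraries the coefficient of variation of the 29 genes had a median of 8.84%, against 10.4% for all genes tested.

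The promoters of 4 members are shown because SREBP2 often acts at its target genes together with NF-Y, a factor that binds CCAAT boxes. Binding of either factor was not measured in these data. The sequences are RefSeq promoters of GRCm38.p6, which give 250 bases before the start of the gene; here each is cut to the bases that lie before the start in both RefSeq and GENCODE. Capitals mark the sterol regulatory element TCACNCCAC and the CCAAT box, read on both strands (ATTGG on the other strand).
Hmgcs1 (chr13:119690101-119690350, plus strand): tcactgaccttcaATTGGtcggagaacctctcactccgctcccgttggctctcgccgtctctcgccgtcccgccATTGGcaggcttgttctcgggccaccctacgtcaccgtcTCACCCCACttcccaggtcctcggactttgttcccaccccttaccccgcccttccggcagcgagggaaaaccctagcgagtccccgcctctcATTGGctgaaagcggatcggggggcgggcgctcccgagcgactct
Lss (chr10:76531355-76531587, plus strand): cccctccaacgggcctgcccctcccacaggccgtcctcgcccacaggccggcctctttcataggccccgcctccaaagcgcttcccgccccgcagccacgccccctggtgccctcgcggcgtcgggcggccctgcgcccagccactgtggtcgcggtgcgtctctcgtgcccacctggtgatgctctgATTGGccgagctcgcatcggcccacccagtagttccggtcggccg
Ebp (chrX:8193513-8193762, minus strand): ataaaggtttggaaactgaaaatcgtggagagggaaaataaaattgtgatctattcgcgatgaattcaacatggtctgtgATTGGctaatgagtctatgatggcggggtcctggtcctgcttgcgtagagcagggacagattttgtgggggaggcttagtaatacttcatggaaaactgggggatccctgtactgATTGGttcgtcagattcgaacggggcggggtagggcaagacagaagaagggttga
Insig1 (chr5:28071162-28071362, plus strand): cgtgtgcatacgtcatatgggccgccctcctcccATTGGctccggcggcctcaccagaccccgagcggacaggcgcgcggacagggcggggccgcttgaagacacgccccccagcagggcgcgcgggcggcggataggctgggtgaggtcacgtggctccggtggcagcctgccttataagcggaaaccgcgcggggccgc
Hmgcs1 held 1 element and 3 CCAAT boxes, Ebp held 2 boxes, and Lss and Insig1 held 1 each. RefSeq windows were found for 23 of the 29 genes, and *Fdps*, *Fdft1*, *Sqle*, *Stard4*, *Npc1* and *Soat2* had none. In the full windows, a CCAAT box occurred in 21 of 23 members (91.3%), against 37.5% of the 27025 genes with a window, and 72.4% of 29 member windows had one, against 33.8% of all 32851 windows. The element in the exact form TCACNCCAC was found in *Hmgcs1* alone of the 23 (4.35%), against 1.22% of all genes with a window and 1.05% of all windows. Other forms of the element were not searched, so a window without a match may still hold one. A match of letters is a description, and the boxes and elements overlapped in no printed window.

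No change of the 29 genes with TCS passed the test used. In *ΔHep* mice, 0 were called by edgeR at an adjusted p under 0.05, with 0.675% of all genes called; in *F/F* mice 0 were called, with 0.557% of all genes called; and with the 2 genotypes averaged 0 were called, with 2.59% of all genes called. The count by DESeq2 was also 0 in each, where it called 221, 166 and 488 of all genes. At an unadjusted p under 0.05 by edgeR, 3 members passed in *ΔHep* mice, 3 in *F/F* mice and 3 in the average. Of all 13633 genes, 1569, 1327 and 2339 passed, in the same order. The median log2 fold change of the 29 was 0.07 in *ΔHep* mice, 0.01 in *F/F* mice and 0.04 in the average, against medians over all genes of −0.01, 0.00 and −0.01. In each of the 3 comparisons 17 of the 29 values were positive and 12 negative.

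*Fdft1*, *Tm7sf2* and *Hmgcs1* had the smallest p for TCS in *F/F* mice and in the average, and *Fdft1*, *Tm7sf2* and *Hsd17b7* in *ΔHep* mice. *Fdft1* (squalene synthase, chr14:63145150-63179578, minus strand, GRCm38) had 77.3 and 72.8 CPM under TCS against 61.9 and 63.9 CPM under vehicle in *ΔHep* mice, and 74.6 and 72 CPM under TCS against 65.5 and 67 CPM under vehicle in *F/F* mice. TCS and vehicle libraries did not overlap in either genotype. The log2 fold change was 0.25 ± 0.06 (SE; adjusted p = 0.17) in *ΔHep* mice, 0.15 ± 0.06 (SE; adjusted p = 0.51) in *F/F* mice and 0.20 ± 0.05 (SE; adjusted p = 0.0596) in the average, with a 95% interval of 0.10 to 0.30 for the average. None of these passed the threshold. The value in *F/F* mice was 0.23 with the Y-linked term.

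*Tm7sf2* (chr19:6062821-6068373, minus strand), a reductase of sterol intermediates, had 33.2 and 32.2 CPM under TCS against 29 and 26.2 CPM under vehicle in *ΔHep* mice, and 32.1 and 30.6 CPM under TCS against 27.5 and 24.9 CPM under vehicle in *F/F* mice. Again the TCS libraries lay above the vehicle libraries of their genotype. Its log2 fold change was 0.24 ± 0.09 (SE; adjusted p = 0.365) in *ΔHep* mice, 0.25 ± 0.09 (SE; adjusted p = 0.424) in *F/F* mice and 0.25 ± 0.07 (SE; adjusted p = 0.0961) in the average. With the Y-linked term the value of *Tm7sf2* in *F/F* mice was 0.20 ± 0.14 (SE; adjusted p = 0.873 by edgeR). It ran from 0.19 to 0.33 there with 1 library left out. *Hmgcs1* (chr13:119690379-119708260, plus strand) had 168 and 193 CPM under TCS against 165 and 152 CPM under vehicle in *ΔHep* mice, and 190.4 and 204 CPM under TCS against 164 and 179 CPM under vehicle in *F/F* mice. Both pairs were higher under TCS, but *Hmgcs1* in *F/F* vehicle replicate 2 exceeded 1 *ΔHep* TCS library. Its log2 fold change was 0.19 ± 0.09 (SE; adjusted p = 0.457) in *ΔHep* mice, 0.21 ± 0.09 (SE; adjusted p = 0.493) in *F/F* mice and 0.20 ± 0.06 (SE; adjusted p = 0.146) in the average. With the Y-linked term the value was 0.02 in *F/F* mice and 0.11 in the average, and without *ΔHep* TCS replicate 2 it was 0.08 in *ΔHep* mice.

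In *ΔHep* mice, *Hsd17b7*, a ketosteroid reductase of the sterol steps, had 25.4 and 30.7 CPM under TCS against 22.7 and 23 CPM under vehicle in *ΔHep* mice, and 23.6 and 23.9 CPM under TCS against 24.9 and 20.0 CPM under vehicle in *F/F* mice. The TCS libraries of *ΔHep* mice were above their vehicle libraries, and those of *F/F* mice overlapped. The log2 fold change was 0.31 ± 0.13 (SE; adjusted p = 0.403) in *ΔHep* mice, and 0.16 without *ΔHep* TCS replicate 2. *Srebf2*, the gene of SREBP2 itself, had 51.1 and 55.1 CPM under TCS against 61.4 and 59.9 CPM under vehicle in *ΔHep* mice, and 53.1 and 59.9 CPM under TCS against 60.3 and 54.7 CPM under vehicle in *F/F* mice. Only the *ΔHep* pairs were separate, with the TCS libraries lower, and the log2 fold change there was −0.19 ± 0.08 (SE; adjusted p = 0.45). *Idi1* had 2.94 and 5.26 CPM under TCS against 2.68 and 2.58 CPM under vehicle in *ΔHep* mice, and 2.60 and 2.63 CPM under TCS against 3.35 and 1.90 CPM under vehicle in *F/F* mice. The value of 0.67 ± 0.35 (SE; adjusted p = 0.51) in *ΔHep* mice, on the log2 scale, rested on replicate 2 of the *ΔHep* TCS group, and was 0.16 without that library.

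In *F/F* mice, *Nsdhl*, a sterol dehydrogenase on the X chromosome, had 8.14 and 9.25 CPM under TCS against 8.54 and 8.14 CPM under vehicle in *ΔHep* mice, and 8.27 and 9.27 CPM under TCS against 8.06 and 6.96 CPM under vehicle in *F/F* mice. The *F/F* TCS libraries were above the *F/F* vehicle libraries, and the fold change was 0.22 ± 0.15 (SE; adjusted p = 0.668) on the log2 scale. It was 0.05 with the Y-linked term, 0.14 without *F/F* TCS replicate 2, 0.33 without *F/F* vehicle replicate 1 and 0.12 without *F/F* vehicle replicate 2. *Npc1*, the lysosomal membrane protein that passes cholesterol out of lysosomes, had 159 and 140.2 CPM under TCS against 134 and 140.2 CPM under vehicle in *ΔHep* mice, and 159 and 149 CPM under TCS against 126 and 155 CPM under vehicle in *F/F* mice. The *F/F* libraries overlapped and the log2 fold change was 0.13 ± 0.10 (SE; adjusted p = 0.733), of the opposite sign without *F/F* vehicle replicate 1, 0.29 without *F/F* vehicle replicate 2 and 0.29 with the Y-linked term. *Sc5d* had 270.2 and 294 CPM under TCS against 297 and 281 CPM under vehicle in *ΔHep* mice, and 274 and 280.0 CPM under TCS against 301 and 285 CPM under vehicle in *F/F* mice. It was slightly lower in the *F/F* TCS libraries, at −0.08 ± 0.07 (SE; adjusted p = 0.749) on the log2 scale, and at −0.20 with the Y-linked term and −0.04 without *F/F* vehicle replicate 1.

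Counts of genes whose TCS and vehicle libraries did not overlap can be read against the same counts over all genes. In *ΔHep* mice 15 of 29 members (51.7%) did not overlap, 8 above and 7 below, against 43% of all genes. In *F/F* mice 6 members (20.7%) did not overlap, 5 above and 1 below, against 38.7% of all genes. With the 4 TCS libraries set against the 4 vehicle libraries, *Fdft1* and *Tm7sf2* did not overlap, 2 of 29 (6.9%), against 12% of all genes.

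**Figure D2:**
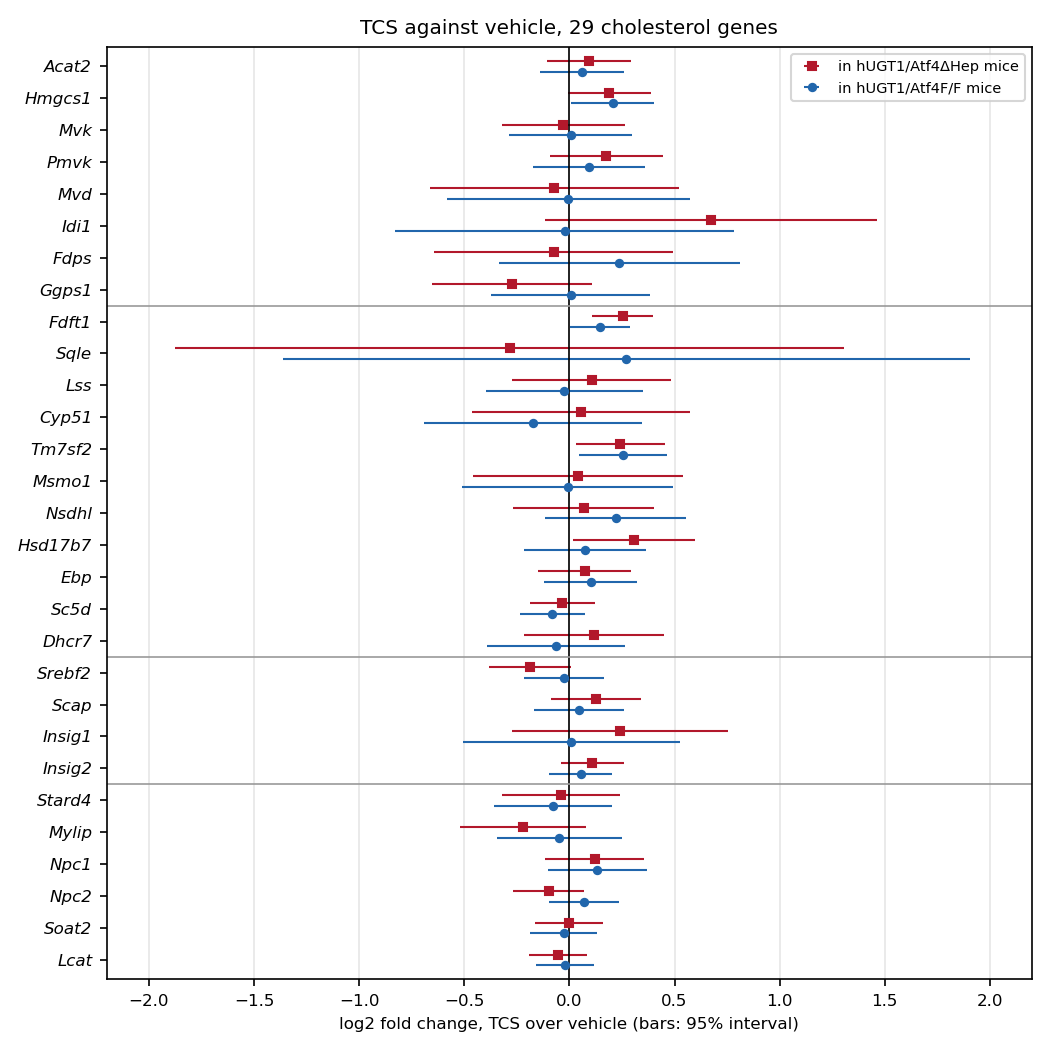
Log2 fold change of TCS over vehicle for each gene in *ΔHep* mice (squares, upper) and *F/F* mice (circles, lower), with 95% intervals. *Sqle* has the widest interval in both genotypes, and the intervals of *Fdft1* and *Tm7sf2* lie above 0 in both without passing the adjusted threshold.

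The size of change that these data leave possible differed by gene. In *ΔHep* mice the 95% interval of the log2 fold change lay within −0.5 to 0.5 for 19 of the 29 genes and within −1 to 1 for 27, *Idi1* and *Sqle* being the exceptions. In *F/F* mice 21 were within −0.5 to 0.5 and 28 within −1 to 1, and in the average 27 and 28. *Lcat* had the smallest SE in each comparison (0.06 in each genotype), and *Sqle* the largest, 0.70 in *ΔHep* mice and 0.72 in *F/F* mice. For *Sqle* the interval ran over −1.87 to 1.31 in *ΔHep* mice and −1.36 to 1.90 in *F/F* mice.

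By group, the median log2 fold change of the 8 mevalonate and isoprenoid genes was 0.03 in *ΔHep* mice and 0.03 in *F/F* mice. Of the 11 genes from squalene to cholesterol, the median was 0.07 in *ΔHep* mice, with 9 positive, and 0.08 in *F/F* mice, with 6 positive. The 4 control genes had 0.12 in *ΔHep* mice and 0.03 in *F/F* mice, with *Srebf2* the negative one in both. The 6 handling genes had −0.05 in *ΔHep* mice and −0.02 in *F/F* mice. *Insig2* and *Scap* gave log2 fold changes of 0.11 ± 0.07 and 0.13 ± 0.09 (SE) in *ΔHep* mice, and *Insig1*, a sensitive target of SREBP2, 0.24 ± 0.23. None of these was called.

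The 19 enzymes together had 859 and 935 CPM under TCS against 879 and 815 CPM under vehicle in *ΔHep* mice, and 858 and 914 CPM under TCS against 870 and 832.5 CPM under vehicle in *F/F* mice. TCS and vehicle libraries overlapped in both genotypes. Sums are led by the abundant genes, *Sc5d*, *Hmgcs1* and *Ebp*.

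The deletion of *Atf4* in hepatocytes was compared under each treatment. Under TCS 0 of 29 members were called by edgeR, with 0.022% of all genes called (3 of 13633); under vehicle 0 were called, with 0.022% of all genes called (3 of 13633); and averaged over treatments 0 were called, with 0.044% of all genes called (6 of 13633). DESeq2 called 0 in each as well, with 7, 5 and 12 of all genes called. At an unadjusted p under 0.05 by edgeR there were 0, 1 and 1 members in these comparisons, taken in the same order. Of all 13633 genes there were 431, 391 and 531. The median log2 fold change of the 29 was 0.03 under TCS, 0.00 under vehicle and 0.02 in the average, with 18, 14 and 17 positive values.

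*Npc2*, the soluble lysosomal protein that hands cholesterol to NPC1, was the member that passed the unadjusted threshold under vehicle (chr12:84754562-84773152, minus strand). It had 50.7 and 48.3 CPM in *ΔHep* mice against 47.8 and 46.7 CPM in *F/F* mice under TCS, and 52.5 and 53.5 CPM in *ΔHep* mice against 47.4 and 42.7 CPM in *F/F* mice under vehicle. The *ΔHep* libraries lay above the *F/F* libraries under both treatments, and the log2 fold change was 0.06 ± 0.07 (SE; adjusted p = 1) under TCS, 0.23 ± 0.07 (SE; adjusted p = 1) under vehicle and 0.15 ± 0.05 (SE; adjusted p = 1) in the average. With 1 library left out, or with the Y-linked term, the value under vehicle lay between 0.16 and 0.31. *Acat2*, the cytosolic thiolase that forms acetoacetyl-CoA and not the esterifying enzyme, had 38.8 and 33.7 CPM in *ΔHep* mice against 33.5 and 32 CPM in *F/F* mice under TCS, and 34 and 33.7 CPM in *ΔHep* mice against 31.7 and 31 CPM in *F/F* mice under vehicle. A near-identical neighbouring gene, *Acat3*, may share reads with it, so its values are uncertain. Its log2 fold change was 0.14 ± 0.09 (SE; adjusted p = 1) under TCS and 0.11 ± 0.09 (SE; adjusted p = 1) under vehicle. Under TCS it was 0.04 without *ΔHep* TCS replicate 1 and 0.25 without *ΔHep* TCS replicate 2. With the Y-linked term it was 0.08 under TCS and 0.18 under vehicle. *Mvk*, mevalonate kinase, had 9.43 and 9.71 CPM in *ΔHep* mice against 8.21 and 9.21 CPM in *F/F* mice under TCS, and 9.84 and 9.73 CPM in *ΔHep* mice against 8.26 and 9.12 CPM in *F/F* mice under vehicle. The log2 fold change under vehicle was 0.17 ± 0.13 (SE; adjusted p = 1), and 0.10 without *F/F* vehicle replicate 1.

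*Hmgcs1* had 168 and 193 CPM in *ΔHep* mice against 190.4 and 204 CPM in *F/F* mice under TCS, and 165 and 152 CPM in *ΔHep* mice against 164 and 179 CPM in *F/F* mice under vehicle. Its libraries overlapped under both treatments. The log2 fold change of the deletion was −0.13 ± 0.09 (SE; adjusted p = 1) under TCS and −0.11 ± 0.09 (SE; adjusted p = 1) under vehicle. Under TCS it was −0.03 without *ΔHep* TCS replicate 1, −0.23 without *ΔHep* TCS replicate 2, −0.08 without *F/F* TCS replicate 2 and −0.04 with the Y-linked term. Under vehicle it ran from −0.17 to −0.04 with 1 library of these groups left out, and was −0.22 with the Y-linked term. *Fdft1* gave −0.08 ± 0.06 (SE; adjusted p = 1) under vehicle, where its *ΔHep* libraries were the lower, and −0.03 with the Y-linked term. *Soat2* had 62.9 and 63.6 CPM in *ΔHep* mice against 66.1 and 66.8 CPM in *F/F* mice under TCS, and 60.7 and 66 CPM in *ΔHep* mice against 65.1 and 70.5 CPM in *F/F* mice under vehicle. The fold change under vehicle was −0.10 ± 0.07 (SE; adjusted p = 1) on the log2 scale, −0.16 to −0.04 with 1 library of these groups left out, and −0.06 with the Y-linked term. *Lcat* had 409.8 and 408 CPM in *ΔHep* mice against 419.8 and 440.4 CPM in *F/F* mice under TCS, and 433 and 416 CPM in *ΔHep* mice against 446 and 427 CPM in *F/F* mice under vehicle, and the change under TCS was −0.07 ± 0.06 (SE; adjusted p = 1) on the log2 scale and −0.04 without *F/F* TCS replicate 2.

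Under TCS, the estimates of *Idi1*, *Hsd17b7* and *Insig1* moved most with *ΔHep* TCS replicate 2. *Idi1* gave a log2 fold change of the deletion of 0.68 ± 0.35 (SE; adjusted p = 1), *Hsd17b7* 0.25 ± 0.13 (SE; adjusted p = 1) and *Insig1* 0.27 ± 0.23 (SE; adjusted p = 1). *Insig1* had 41.5 and 59.2 CPM in *ΔHep* mice against 35.8 and 48.3 CPM in *F/F* mice under TCS, and 48.6 and 37.3 CPM in *ΔHep* mice against 48.7 and 34.6 CPM in *F/F* mice under vehicle. Without *ΔHep* TCS replicate 2, the value fell to 0.17 for *Idi1* and 0.10 for *Hsd17b7*, and for *Insig1* it was −0.02. For *Insig1* it was also 0.49 without *ΔHep* TCS replicate 1, 0.08 without *F/F* TCS replicate 1, 0.50 without *F/F* TCS replicate 2 and 0.54 with the Y-linked term.

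**Figure D3:**
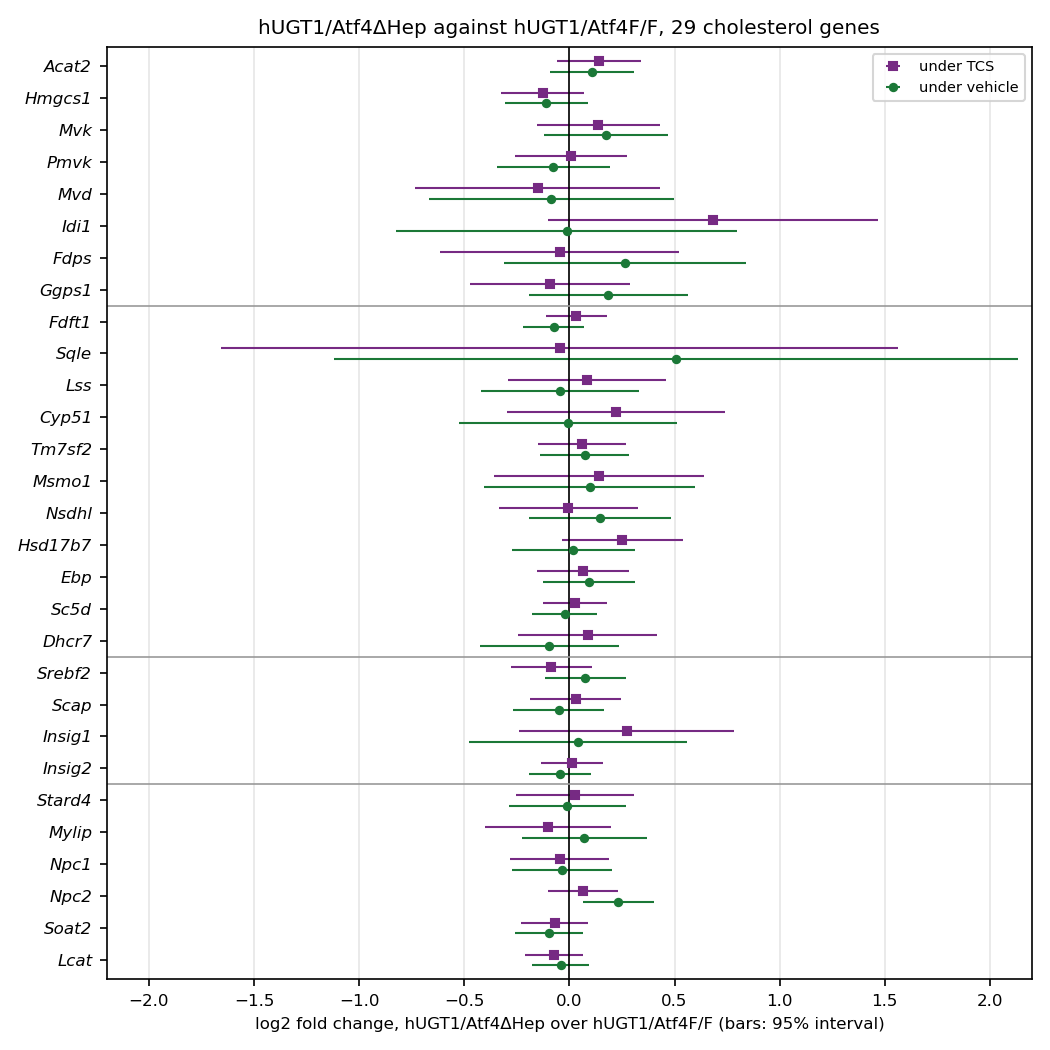
Log2 fold change of *ΔHep* over *F/F* for each gene under TCS (squares, upper) and under vehicle (circles, lower), with 95% intervals. All intervals but that of *Npc2* under vehicle include 0, and *Idi1* under TCS has the largest estimate, 0.68.

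Genes whose *ΔHep* and *F/F* libraries did not overlap numbered 10 of 29 (34.5%) under TCS, 6 above and 4 below, against 30.5% of all genes. Under vehicle there were 7 (24.1%), 6 above and 1 below, against 30.2% of all genes. With the 4 *ΔHep* libraries set against the 4 *F/F* libraries, *Acat2*, *Mvk* and *Npc2* did not overlap, 3 of 29 (10.3%), against 2.24% of all genes; all 3 were higher in *ΔHep* mice and none was called. The 95% interval lay within −0.5 to 0.5 for 21 genes under TCS, 21 under vehicle and 24 in the average. It lay within −1 to 1 for 27, 28 and 28.

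No difference between the genotypes in the effect of TCS was detected by the test of the difference itself. The interaction was the TCS effect in *ΔHep* mice minus that in *F/F* mice. It was called by edgeR for 0 of 29 members and for 0% of all genes, and by DESeq2 for 0 members. No member had an unadjusted p under 0.05 by edgeR, against 282 of all 13633 genes. The median over the 29 was 0.03 on the log2 scale. The smallest p was that of *Npc2*, 0.142, with an interaction of −0.17 ± 0.10 (SE; adjusted p = 1). *Idi1* had the largest value, 0.70 ± 0.50 (SE), with a 95% interval of −0.43 to 1.82. The intervals of 16 genes lay within −0.5 to 0.5 and those of 26 within −1 to 1, the exceptions being *Fdps*, *Idi1* and *Sqle*. A p that misses the threshold does not show that the genotypes responded alike.

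The 2 libraries of a group differed in several members. *Insig1* was the higher in replicate 2 of the *ΔHep* TCS group, replicate 1 of the *ΔHep* vehicle group, replicate 2 of the *F/F* TCS group and replicate 1 of the *F/F* vehicle group. The order of the libraries follows *Insig1* and was taken after the values were seen, so what follows describes these libraries only and supports nothing about the genes together. *Insig1* in the higher against the lower library of these groups, in the same order, had 59.2 against 41.5 CPM, 48.6 against 37.3 CPM, 48.3 against 35.8 CPM, 48.7 against 34.6 CPM, a mean difference of 0.45 in log2(CPM + 1). *Sqle* had 2.72 against 0.433 CPM, 2.87 against 1.32 CPM, 2.29 against 1.27 CPM, 1.93 against 0.985 CPM, a mean of 0.80. *Cyp51*, the demethylase of lanosterol, had 14.8 against 11.2 CPM, 15.6 against 9.66 CPM, 12.4 against 10.1 CPM, 13.4 against 11.9 CPM, a mean of 0.36. The direction was the same in all 4 groups for each of these genes.

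*Msmo1*, a methylsterol oxidase, had 16.8 against 11.5 CPM, 15.1 against 12.9 CPM, 15.2 against 10.8 CPM, 14.6 against 11.5 CPM, a mean log2 difference of 0.37. *Fdps*, which makes farnesyl diphosphate, had 14.2 against 8.65 CPM, 12.6 against 12 CPM, 14.8 against 9.42 CPM, 10.6 against 9.91 CPM, a mean of 0.35. *Lss* had 21.4 against 18.9 CPM, 21.2 against 16.3 CPM, 20.7 against 17.5 CPM, 21.7 against 17 CPM, a mean of 0.27. *Fdft1*, *Scap* and *Npc1* ran the other way in all 4 groups, and members such as *Tm7sf2*, *Hmgcs1*, *Acat2* and *Mvk* had no fixed order. In this order, 13 of 29 members were higher and 3 lower in all 4 groups, against 1433 and 1340 of all 13633 genes. As *Insig1*, a member, set the order, this count is a description only. Some alternation was also present over all genes tested. Deviations of replicate 1 correlated at 0.37 between the TCS groups and at 0.35 between the vehicle groups. Between a TCS and a vehicle group they correlated at −0.41 to −0.14.

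**Figure D4:**
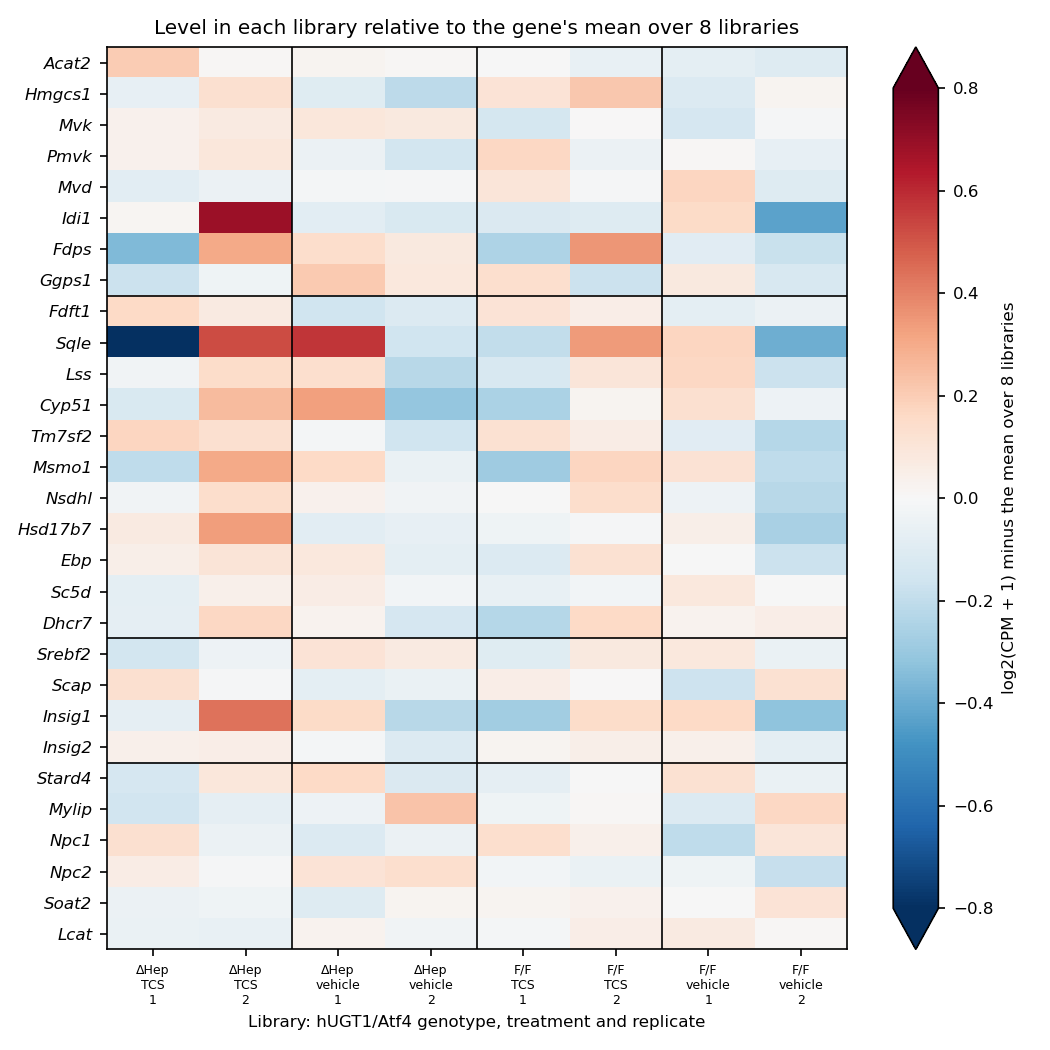
Log2(CPM + 1) of each gene in each library minus its mean over the 8 libraries (red higher, blue lower; colours end at 0.8), with lines between gene groups and sample groups. *Sqle*, *Fdps*, *Msmo1* and *Insig1* were higher in replicate 2 of both TCS groups and in replicate 1 of both vehicle groups. For *Fdps* the vehicle pairs differed by only 0.07 in *ΔHep* mice and 0.09 in *F/F* mice.

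Other measures differed between the same libraries. *Xist* had 753 against 0.346 CPM, 778 against 4.50 CPM, 758 against 718 CPM and 23.2 against 1.05 CPM, in the same order. Total counts were 25573210 against 11624143, 16044025 against 15272763, 17274020 against 16633244 and 19815967 against 15388192. Summed hepatocyte markers were lower in each of these libraries, at 137307 against 147012 CPM, 151612 against 160642 CPM, 133663 against 150405 CPM and 157720 against 163780 CPM. The part of sex, depth and hepatocyte RNA in the differences between these libraries was not tested. *Ebp* and *Nsdhl* lie on the X chromosome.

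**Figure D5:**
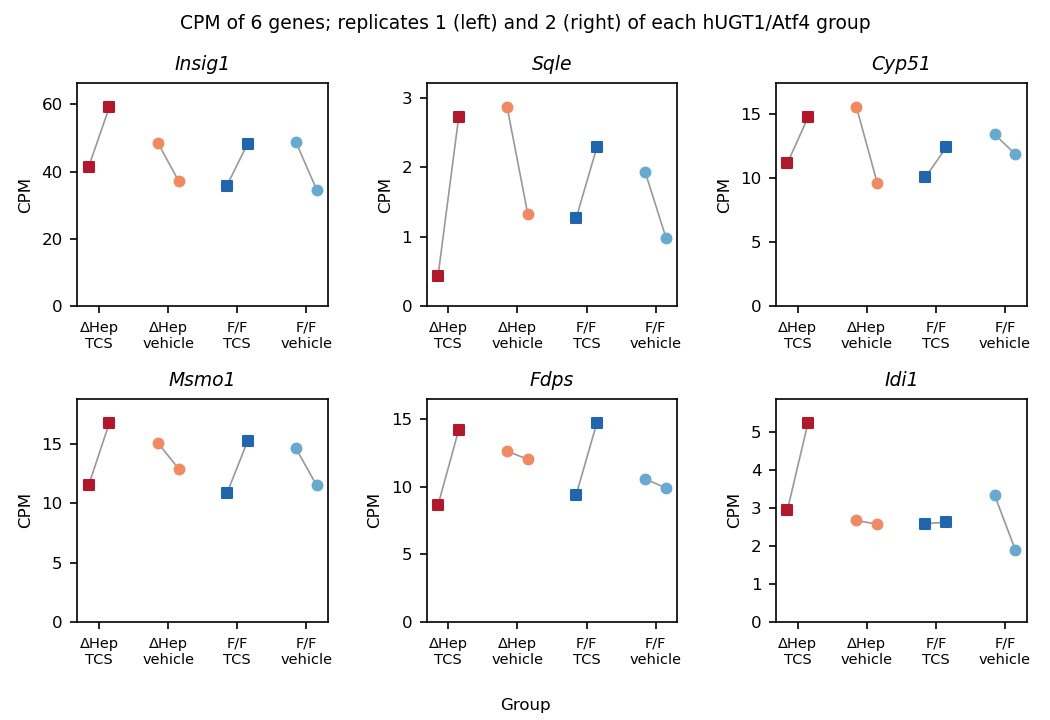
CPM of 6 genes in each library from 0 upwards, with a line joining the 2 libraries of a group. The 4 groups overlap for *Insig1*, whose libraries in the *ΔHep* TCS group had 59.2 and 41.5 CPM.

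Genes of the wider pathway were read from 4 further lists, of which 55 genes were tested. For TCS averaged over genotypes, edgeR called 4 of them, all higher under TCS, where 2.59% of all genes were called. DESeq2 called 7 of them, and it called 488 of all genes. Of the 7, 5 were higher under TCS (these 4 and *Acat1*), while *Srebf1* and *Scarb1* were lower. For TCS in *ΔHep* mice edgeR called 0 (9 at an unadjusted p under 0.05) and DESeq2 2, *Nceh1* and *Por*. Of all genes, edgeR called 92 there (1569 unadjusted) and DESeq2 221. For TCS in *F/F* mice edgeR called 0 (8 unadjusted) and DESeq2 1, *Por*. Of all genes, edgeR called 76 there (1327 unadjusted) and DESeq2 166. For the deletion under TCS, under vehicle and in the average, and for the interaction, both tools called 0. By edgeR, 1, 0, 3 and 0 of them had an unadjusted p under 0.05, against 431, 391, 531 and 282 of all genes. The 4 were 1 of 17 other sterol and isoprenoid enzymes, 1 of 9 LXR receptors and targets, 2 of 16 genes of cholesterol uptake, storage and movement and 0 of 13 genes of SREBP processing, sterol sensing and turnover. *Por*, the reductase that feeds electrons to cytochrome P450 enzymes such as CYP51 and to squalene epoxidase, had 941 and 869 CPM under TCS against 630.0 and 636 CPM under vehicle in *ΔHep* mice, and 875 and 1112 CPM under TCS against 639.9 and 708 CPM under vehicle in *F/F* mice. Averaged over genotypes, it rose by 0.54 ± 0.08 (SE; adjusted p = 0.00937) on the log2 scale. *Nceh1*, a hydrolase of cholesterol esters, had 27.9 and 35.7 CPM under TCS against 18.3 and 23.3 CPM under vehicle in *ΔHep* mice, and 32.3 and 33.3 CPM under TCS against 22.6 and 23.6 CPM under vehicle in *F/F* mice, with 0.56 ± 0.10 (SE; adjusted p = 0.0256) on the log2 scale.

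*Vldlr*, the receptor for very low density lipoprotein, had 23.9 and 27.2 CPM under TCS against 18.6 and 20.4 CPM under vehicle in *ΔHep* mice, and 30.2 and 27.6 CPM under TCS against 20.0 and 22.6 CPM under vehicle in *F/F* mice, and its log2 fold change was 0.42 ± 0.08 (SE; adjusted p = 0.0307). *Lpcat3*, a phospholipid acyltransferase, had 79.9 and 89.4 CPM under TCS against 64.5 and 71.5 CPM under vehicle in *ΔHep* mice, and 99.2 and 89.9 CPM under TCS against 76.3 and 74.6 CPM under vehicle in *F/F* mice, and its log2 fold change was 0.32 ± 0.06 (SE; adjusted p = 0.0298). In all 4 genes the 4 TCS libraries lay above the 4 vehicle libraries. Each call depended on single libraries. Leaving out 1 library ended that of *Vldlr* for each of the 8 libraries, that of *Lpcat3* for 7 of them (all but *F/F* TCS replicate 2), that of *Nceh1* for 5 (*ΔHep* TCS replicate 2, *ΔHep* vehicle replicate 1, *F/F* TCS replicate 2 and both *F/F* vehicle libraries) and that of *Por* for 3 (*ΔHep* TCS replicate 1 and both *ΔHep* vehicle libraries). The adjusted p without a library reached 0.142 for *Vldlr*, 0.142 for *Lpcat3*, 0.1 for *Nceh1* and 0.0656 for *Por*, while their log2 fold changes were 0.37 to 0.47, 0.28 to 0.36, 0.46 to 0.66 and 0.45 to 0.62.

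The next genes of these lists were not called by edgeR. *Scarb1*, called by DESeq2 in the average, had 310 and 258 CPM under TCS against 322 and 350 CPM under vehicle in *ΔHep* mice. In *F/F* mice it had 325 and 278 CPM under TCS against 352 and 368 CPM under vehicle. *Srebf1*, which encodes the SREBP1 proteins of fatty acid synthesis, had 387 and 431 CPM under TCS against 472 and 488 CPM under vehicle in *ΔHep* mice, and 362 and 398 CPM under TCS against 474 and 429 CPM under vehicle in *F/F* mice, or −0.24 ± 0.06 (SE; adjusted p = 0.0734) on the log2 scale in the average. *Acat1*, a mitochondrial thiolase, had 1037 and 992 CPM under TCS against 840.1 and 895 CPM under vehicle in *ΔHep* mice, and 1131 and 1002 CPM under TCS against 928 and 933 CPM under vehicle in *F/F* mice, or 0.21 ± 0.05 (SE; adjusted p = 0.0751) on the log2 scale. *Paqr3*, a Golgi anchor of the SCAP complex, gave −0.33 ± 0.14 (SE; adjusted p = 0.28), and *Pltp*, a phospholipid transfer protein, −0.13 ± 0.08 (SE; adjusted p = 0.436). The medians of the 4 lists for TCS in the average were 0.05 for other enzymes, 0.01 for LXR genes, 0.01 for uptake, storage and movement and −0.03 for SREBP processing, near that of all genes.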

How the data were processed

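Liver RNA of 8 libraries, 2 per group, was sequenced from a stranded mRNA kit. The raw counts per gene symbol were used as deposited by the authors, whose processing notes name bcl2fastq 2.20, STAR 2.7.9a and mm10. The sources used here name neither the counter nor the annotation. The other deposited tables, which hold normalized values or the authors' own comparisons (fold changes and p values), were not used. Libraries were assigned to groups by their labels.

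The members and gene lists were chosen with earlier results of these data known. The test was that of edgeR 4.0.16 in R 4.3.3, with DESeq2 1.42.0 as an alternative. filterByExpr (count minimum 10, total 15) kept 13633 genes. After TMM scaling, the quasi-likelihood model had 1 mean per group over all 8 libraries, and p values were adjusted by Benjamini and Hochberg over all genes, with 0.05 as threshold. An SE is the log2 fold change over the square root of F, and intervals are at 95%. The procedure was also run on counts simulated independently for each library, which lacked the differences in sex makeup seen here. No result here draws on that run. Full statistics are given for the 6 members with the smallest p in each comparison of 2 groups, and for pathway genes called or among the 2 with the smallest p of their list, save those not reported here. Exon lengths and coordinates came from GENCODE M21 (GRCm38), and promoters from RefSeq. Libraries of 1 group differed by more than sampling noise (chi-square per gene of 7.71 to 17.0), and each counted as its own sample; as the labels do not tie libraries to litters, p values measure the spread between these pools. Figures were drawn with matplotlib 3.10.9.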

Additional observations from a re-analysis of the deposited data

How the results depend on the processing

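No member was called in any of 95 alternative fits, which changed the scaling (RLE), the filter, the tool (DESeq2) or the libraries fitted, added the share of Y-linked RNA as a sex term, added a replicate block, or left out 1 library in turn. At an adjusted p under 0.1, 2 members passed, *Fdft1* and *Tm7sf2*, for TCS averaged over genotypes. With the sex term neither passed it by edgeR, as the lowest adjusted p of any member there was 0.149. With 1 library left out, the log2 fold change was 0.18 to 0.22 for *Fdft1* and 0.21 to 0.29 for *Tm7sf2*. The share of all genes passing at 0.1 was not counted, so these 2 members cannot be set against it. Of 427 alternative values of 31 named fold changes, 397 kept their direction and side of the threshold, 28 lost a call (all of *Por*, *Nceh1*, *Vldlr* and *Lpcat3*) and 2 changed sign: *Npc1* for TCS in *F/F* mice (−0.013 without *F/F* vehicle replicate 1, 0.29 at most without another library) and *Insig1* for the deletion under TCS (−0.018 without *ΔHep* TCS replicate 2, 0.50 at most without another library); the cause was not tested. The sex term also ended the 4 pathway calls, at adjusted p of 0.054 to 0.158, while the log2 fold changes were 0.55 for *Por*, 0.55 for *Nceh1*, 0.42 for *Vldlr* and 0.33 for *Lpcat3*. Without a call being at stake, it moved *Hmgcs1* to 0.02 and *Nsdhl* to 0.05 for TCS in *F/F* mice, where sex makeup went with treatment.

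Same-numbered libraries correlated in their deviations from −0.41 to 0.37, positively within a treatment and negatively between treatments. Whether libraries were paired across groups cannot be told from these values or from the labels. With the replicate number as a block, 0 members were called, and *Lpcat3* lost its call (adjusted p = 0.0555).

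All genes called numbered 76 for TCS in *F/F* mice (20 to 166 under the alternatives), 92 in *ΔHep* mice (11 to 221) and 353 in the average (107 to 538). The deletion gave 3 under TCS (2 to 31), 3 under vehicle (2 to 6) and 6 in the average (3 to 12), and the interaction 0 (0 to 1). Counts per library were lowest for *Sqle* (5 to 71), *Mvd* (27 to 63) and *Idi1* (29 to 137), and the parts of depth and of the spread between libraries in their error were not separated.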
